A study of Mus musculus with 18 samples.

Results

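The genes described here are the 10 genes of TGF-beta supply and reception that were chosen by name: the ligands Tgfb1, Tgfb2 and Tgfb3, the receptors Tgfbr1, Tgfbr2 and Tgfbr3, the latent binders Ltbp1, Ltbp2 and Ltbp3, and Inhba, which encodes the activin beta A subunit. They were taken from 55335 gene identifiers by their symbols, with no measured value in the rule, although earlier results of these data were known when the genes were chosen. All 10 passed the filter on low counts on both days. O9-1 cells, a wild-type line of neural crest (NC) cells derived from mouse embryos, were cultured in osteoblast differentiation medium. The poly(A) RNA of 18 libraries was sequenced, 3 replicates of each of 3 groups at d2.5 and again at d5. The Ctrl+vehicle group received control siRNA (siCtrl) and no FGF2, the Ctrl+FGF2 group control siRNA and FGF2, and the Y/T dKD+FGF2 group siRNA against Yap and Taz (siY/T) and FGF2. All groups thus had an siRNA transfection, and a knockdown group without FGF2 was not analysed here. O9-1 is 1 cell line, and nothing in the labels says that replicates came from separate cultures, so p-values measure the spread between these libraries, which may be technical.

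TGF-beta is secreted in a latent form, in which the mature dimer is held by its own propeptide and tied to the extracellular matrix by a latent TGF-beta binding protein. Once released, it binds the type II receptor Tgfbr2, which recruits and phosphorylates the type I receptor Tgfbr1, and the signal passes to Smad2 and Smad3. Tgfbr3 (betaglycan) is a co-receptor that presents ligand, above all Tgfb2, and activins use their own receptors but the same Smads. In the cranial sutures and other bone-forming tissue, TGF-beta and FGF are both known as regulators of osteoprogenitor growth and differentiation.

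The libraries held between 10377151 and 14698525 counts on genes (median 12330911), and no 2 replicates of a group agreed within counting noise. The labels call each day a batch, so groups were tested within a day and only the differences of their effects were tested between days. Of the siRNA targets, Yap1 fell in Y/T dKD+FGF2 to 0.515-fold its level in Ctrl+FGF2 at d2.5 (adjusted p = 9.7e-17) and to 0.46-fold at d5 (adjusted p = 3.6e-11), and Wwtr1, which encodes Taz, to 0.608-fold (adjusted p = 2.6e-15) and 0.575-fold (adjusted p = 4.9e-11). Against Ctrl+vehicle at d2.5, Wwtr1 differed by a log2 fold change of -0.06 (SE 0.04), which was not called (adjusted p = 0.122), and Yap1 was at 0.44-fold. In Ctrl+FGF2 against Ctrl+vehicle at d2.5, Wwtr1 was higher by 0.65 (SE 0.04, adjusted p = 1.3e-16) and Yap1 changed by -0.23 (SE 0.04, adjusted p = 3.3e-06). The Wwtr1 transcript in the knockdown at d2.5 was thus near its Ctrl+vehicle level. Of 8 NC markers, Tfap2a, Ets1, Sox9 and Twist1 were above 1 CPM (counts scaled to the library total) in every group, while Sox10 and Foxd3, which define early NC cells, had no count in any library. Of 7 mesenchymal markers, 6 were above 1 CPM in every group. The markers of endothelial, immune and epithelial cells each summed to at most 5.5 CPM in any library, and those of glia and neurons each to at most 26.5 CPM.

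The promoters of Tgfb2 and Ltbp2 are shown because these 2 genes had the largest FGF2 effects at d5 among the 10. The bases before the transcription start are given 5′ to 3′ on the strand of the gene (RefSeq, GRCm38.p6), where the Tgfb2 stretch is chr1:186705990-186706239 on the minus strand and the Ltbp2 stretch is chr12:84876533-84876741 on the minus strand, without the bases that lie inside the GENCODE gene. Capitals mark the letters CAGAC on either strand (read as GTCTG on the other), which is the core of sites bound by Smad3 and Smad4.
Tgfb2: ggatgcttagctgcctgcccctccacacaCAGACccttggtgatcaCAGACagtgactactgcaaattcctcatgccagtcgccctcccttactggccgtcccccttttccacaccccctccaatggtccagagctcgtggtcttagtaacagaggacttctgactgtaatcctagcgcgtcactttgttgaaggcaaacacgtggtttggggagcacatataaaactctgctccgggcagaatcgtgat
Ltbp2: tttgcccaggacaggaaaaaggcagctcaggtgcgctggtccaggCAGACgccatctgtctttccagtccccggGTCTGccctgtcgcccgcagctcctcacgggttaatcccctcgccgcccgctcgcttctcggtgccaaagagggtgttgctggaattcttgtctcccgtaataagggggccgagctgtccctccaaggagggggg
Windows of 300 bases around the start, 250 before and 50 after, were found for 8 of the 10 genes (10 windows in all), and Tgfb3 and Tgfbr3 were not matched. CAGAC was present in 7 of the 10 windows, against 49.6% of all 32851 windows of the RefSeq set. The letters TGANTCA, to which AP-1 binds, were present in 1 window, that of Ltbp3, against 7.81% of all windows. GGAATG (Tead) and CCGGAAG (ETS) were in none of the 10 windows, against 14.7% and 8.86% of all windows. Both strands were searched in each case, and CAGAC was the only one of these patterns found in the windows of Tgfb2 and Ltbp2. The matches describe these letters in these windows and do not show binding.

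Levels are given as CPM normalized by TMM factors, and levels of different genes are compared as CPM per kb of exon. Ltbp1 was the highest of the 10 genes per length in each of the 6 groups, from 52.3 ± 0.838 CPM per kb (SD, n = 3) in Ctrl+vehicle at d2.5 to 99.5 ± 0.489 in Ctrl+FGF2 at d5. Ltbp2 was the lowest in Ctrl+vehicle on both days and in Y/T dKD+FGF2 on both days. In Ctrl+vehicle at d5 the order was Ltbp1 (95.5 ± 2.73 CPM per kb), Tgfb3 (71.6 ± 5.36), Tgfb2 (37.5 ± 1.12), Tgfb1 (34 ± 3.89), Tgfbr2 (25.9 ± 1.24), Ltbp3 (25.6 ± 1.28), Tgfbr3 (15.9 ± 1.06), Tgfbr1 (11.6 ± 0.352), Inhba (10.1 ± 1.03) and Ltbp2 (2.34 ± 0.0841). In that order Tgfb2 and Tgfb1, and Tgfbr2 and Ltbp3, lay within 1 SD of each other.

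**Figure D1:**
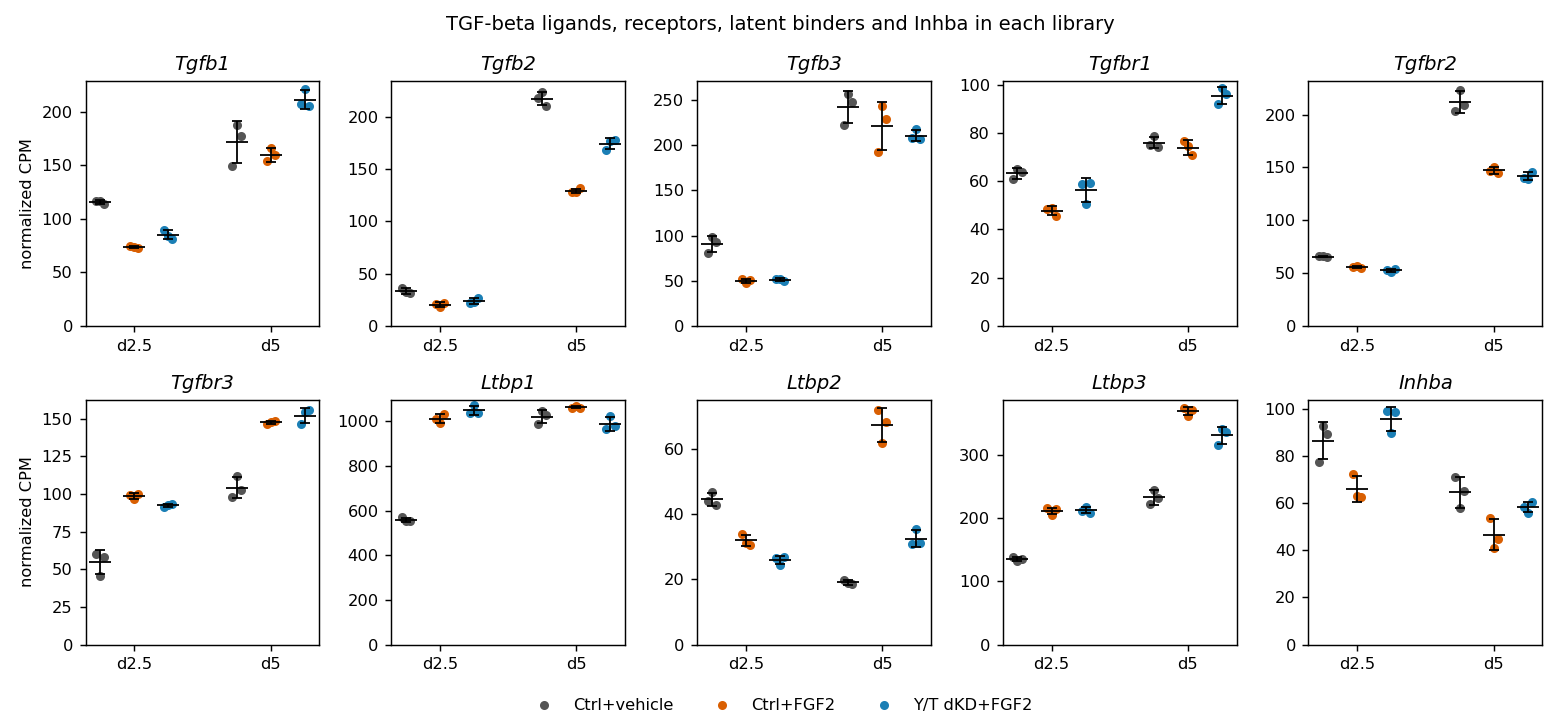
Normalized CPM (y axis, linear from 0) of each of the 10 genes in the 3 groups at d2.5 and d5. Points are libraries (n = 3 per group), and black bars give the mean ± SD. Tgfb2 was higher at d5 in every library, and Ltbp2 in Ctrl+FGF2 at d5 (61.9 to 72.2 CPM) was above all other groups.

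With FGF2 at d2.5, the transcripts of the 3 ligands, of both signalling receptors, of Ltbp2 and of Inhba fell, and those of Tgfbr3, Ltbp1 and Ltbp3 rose. Each of the 10 genes passed the test in Ctrl+FGF2 against Ctrl+vehicle, 3 higher and 7 lower, where 33.5% of 13677 tested genes were called higher and 34.1% lower. The median log2 fold change was -0.41 over the 10 genes and 0.00 over all tested genes. At d5, 6 of the 10 were called, 3 higher (Tgfbr3, Ltbp2 and Ltbp3) and 3 lower (Tgfb2, Tgfbr2 and Inhba), where 23.5% of 13304 genes were called higher and 23.7% lower. Without replicate 1 of Ctrl+vehicle at d5, 5 of the 10 were called lower, since Tgfb1 and Tgfb3 were added.

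With the knockdown of Yap/Taz in FGF2-treated cells, Tgfb1, Tgfb2, Tgfbr1 and Inhba were called higher on both days and Ltbp2 lower on both days. At d2.5 these were all the calls, 4 higher and 1 lower, where 10.8% of tested genes were called higher and 13.6% lower. The call of Tgfb2 at d2.5 lay at the threshold (adjusted p = 0.0499) and was lost with DESeq2, which called 3 higher. At d5 Ltbp1 and Ltbp3 were also called lower, which made 4 higher and 3 lower, where 15.6% of tested genes were called higher and 16.1% lower. The FGF2 and the knockdown comparisons share the Ctrl+FGF2 libraries, so opposite signs in the pair are not independent of each other. Y/T dKD+FGF2 was therefore also set against Ctrl+vehicle, a contrast that leaves the Ctrl+FGF2 group out. The Ctrl+FGF2 libraries of the day still entered the shared filter, scaling factors and estimate of spread. In that comparison 3 genes were higher and 6 lower at d2.5 (all genes 34.1% and 35.7%), and 5 higher and 3 lower at d5 (all genes 20.7% and 21.1%).

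**Figure D2:**
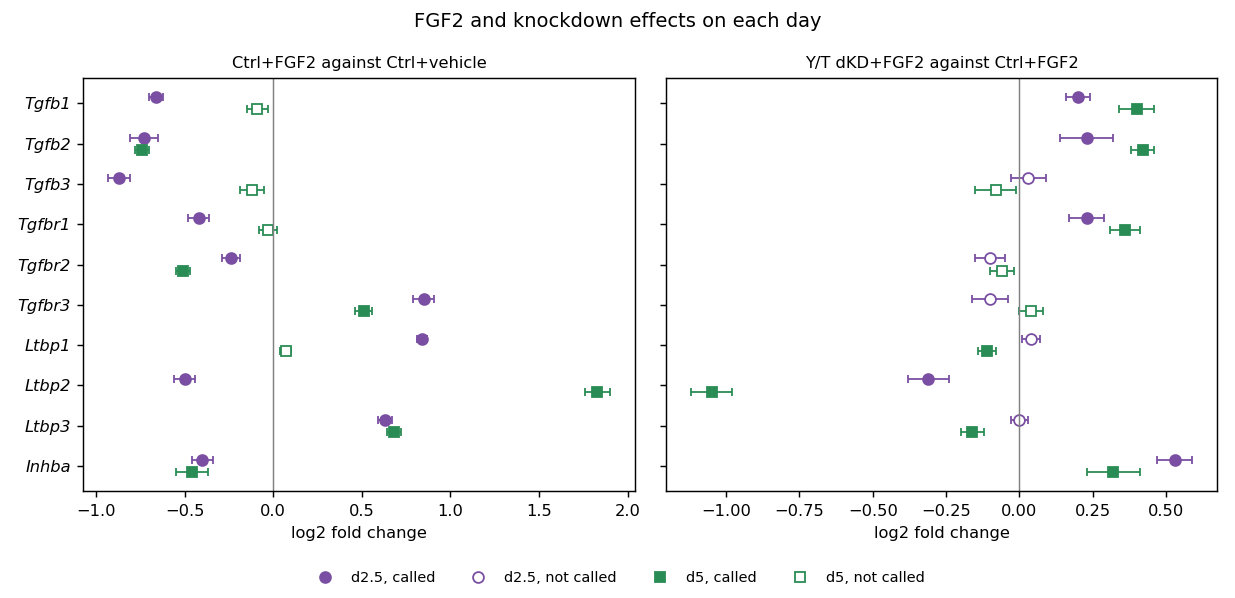
Log2 fold change (x axis) of the 10 genes for Ctrl+FGF2 against Ctrl+vehicle and for Y/T dKD+FGF2 against Ctrl+FGF2, at d2.5 (circles) and d5 (squares). Bars are SE, and filled symbols passed an adjusted p of 0.05. The FGF2 effect on Ltbp2 was -0.50 at d2.5 and 1.83 at d5, and that on Tgfb2 was -0.73 and -0.74.

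The values called effects below are log2 fold changes from edgeR's quasi-likelihood test with Benjamini-Hochberg adjusted p-values over all tested genes. Tgfb2, a ligand of the developing skull and heart, is a minus-strand gene of chromosome 1 (186622792 to 186705989, with all gene positions here from GENCODE M21 on GRCm38). Gm29491 overlaps it on the opposite strand, but counts are those of the gene's own strand. At d2.5 its libraries were at 36.4, 32.6 and 31.3 CPM with Ctrl+vehicle, 20.6, 18.1 and 22.4 CPM with Ctrl+FGF2 and 22.4, 22.7 and 27 CPM with Y/T dKD+FGF2. At d5 they were at 218, 223 and 210.4, 128, 128 and 132 and 168, 177 and 178 CPM in the same order. On both days every Ctrl+FGF2 library was below every Ctrl+vehicle library, and at d5 the knockdown libraries lay between both groups without overlap. The log2 fold change with FGF2 was -0.73 (SE 0.08, adjusted p = 2.0e-09) at d2.5 and -0.74 (SE 0.04, adjusted p = 1.2e-10) at d5, and the effects of the 2 days differed by -0.03 (SE 0.09), which was not called (adjusted p = 0.764). With the knockdown Tgfb2 changed by 0.42 (SE 0.04, adjusted p = 2.2e-07) at d5. At d2.5 the knockdown change of 0.23 (SE 0.09) was at the threshold (adjusted p = 0.0499), and it was not called by DESeq2, with unstranded counts, or without replicate 3 of Ctrl+vehicle, replicate 1 or 2 of Ctrl+FGF2 or replicate 3 of Y/T dKD+FGF2 (0.14 to 0.30 over the fits that left out 1 library). The level at d5 was 6.5 times that at d2.5 for Ctrl+vehicle, 6.36 times for Ctrl+FGF2 and 7.25 times for the Y/T dKD+FGF2 libraries, which is given without a test because each day is its own batch.

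Tgfb1, the most widely expressed ligand of the family, is a plus-strand gene of chromosome 7 (25687002 to 25705077). At d2.5 its libraries were at 116.5, 117 and 113.5 CPM with Ctrl+vehicle, 75, 73.3 and 73.1 CPM with Ctrl+FGF2 and 89.9, 84.2 and 81.5 CPM with Y/T dKD+FGF2, and at d5 at 149.6, 188 and 177, 153, 166 and 159.5 and 207, 221 and 205 CPM. At d2.5 the 3 groups did not overlap, whereas at d5 Ctrl+vehicle and Ctrl+FGF2 overlapped and the knockdown libraries were above both. The FGF2 effect was -0.66 (SE 0.04, adjusted p = 5.5e-15) at d2.5 and -0.09 (SE 0.06, adjusted p = 0.234) at d5, and the 2 effects differed by 0.54 (SE 0.08, adjusted p = 7.8e-07). Without replicate 1 of Ctrl+vehicle the effect at d5 was -0.18 and was called. The knockdown effect was 0.20 (SE 0.04, adjusted p = 0.00115) at d2.5 and 0.40 (SE 0.06, adjusted p = 6.3e-05) at d5. Against Ctrl+vehicle, Y/T dKD+FGF2 was lower at d2.5, -0.46 (SE 0.04, adjusted p = 2.4e-11), and higher at d5, 0.30 (SE 0.06, adjusted p = 5.2e-04).

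Tgfb3, the ligand best known for palate fusion, is a minus-strand gene of chromosome 12 (86056745 to 86079041), with Gm37804 and Gm48008 on the opposite strand. At d2.5 its libraries were at 81, 98.5 and 92.9 CPM with Ctrl+vehicle, 51.8, 47.5 and 50.9 CPM with Ctrl+FGF2 and 52.5, 51.8 and 49.9 CPM with Y/T dKD+FGF2, and at d5 at 222, 257 and 248, 192, 243 and 229 and 208, 217.5 and 207 CPM. FGF2 libraries were below all Ctrl+vehicle libraries at d2.5, and Ctrl+vehicle and Ctrl+FGF2 overlapped at d5. The FGF2 effect was -0.87 (SE 0.06, adjusted p = 1.2e-14) at d2.5 and -0.12 (SE 0.07, adjusted p = 0.159) at d5, and their difference was 0.73 (SE 0.10, adjusted p = 1.8e-07). The effect at d5 was called with a replicate block, with no filter, without replicate 1 of Ctrl+vehicle and without replicate 2 of Ctrl+FGF2, and it was between -0.19 and -0.03 across the fits without 1 library. No knockdown effect was called for Tgfb3 on either day, at 0.03 (SE 0.06, adjusted p = 0.793) and -0.08 (SE 0.07, adjusted p = 0.412), although that at d5 was called without replicate 1 of Ctrl+FGF2 (-0.17 to -0.01 over the fits that left out 1 library). Whether the knockdown effects of the ligands differ from each other was not tested.

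Per length, Tgfb3 and Tgfb1 made up most of the ligand transcripts at d2.5, and the share of Tgfb2 was larger at d5. In Ctrl+vehicle at d2.5 Tgfb2 was 10.4% ± 1.18 (SD, n = 3) of the summed CPM per kb of the 3 ligands, with Tgfb1 at 41.3% ± 1.76 and Tgfb3 at 48.3% ± 2.92. In Ctrl+vehicle at d5 Tgfb2 was 26.3% ± 1.79, Tgfb1 23.7% ± 1.21 and Tgfb3 50% ± 0.654. With FGF2 at d5 the share of Tgfb2 was 18.8% ± 1.39, and in Y/T dKD+FGF2 it was 22.4% ± 0.666, with no overlap among the 3 groups of d5. The sum itself was 55.5 ± 2.28 CPM per kb for Ctrl+vehicle, 33 ± 1.1 for Ctrl+FGF2 and 36.2 ± 0.871 for the Y/T dKD+FGF2 libraries at d2.5, and 143 ± 9.46, 119 ± 9.04 and 134 ± 3.88 at d5. All 9 libraries of d5 were above all 9 libraries of d2.5 in this sum.

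**Figure D3:**
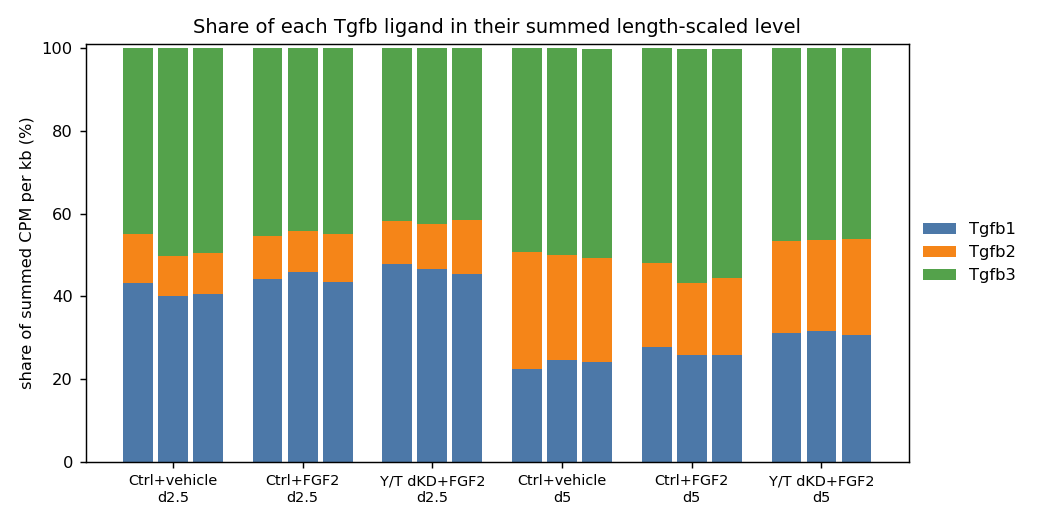
Share of Tgfb1, Tgfb2 and Tgfb3 in their summed CPM per kb (y axis, percent), 1 bar per library and 3 bars per group. Tgfb2 took 9.72% to 13.1% at d2.5 and 17.4% to 28.4% at d5.

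Among the receptors, Tgfbr2 fell with FGF2 on both days and the co-receptor Tgfbr3 rose on both days. Tgfbr2 is a minus-strand gene of chromosome 9 (116084293 to 116175360), and its libraries were at 65.9, 65.8 and 65.1 CPM with Ctrl+vehicle, 55.8, 57.1 and 54.8 CPM with Ctrl+FGF2 and 52.9, 50.9 and 53.9 CPM with Y/T dKD+FGF2 at d2.5. At d5 they were at 203, 223 and 209, 147, 151 and 145 and 139.7, 139 and 146 CPM. The Ctrl+vehicle libraries were above all others on each day. The FGF2 effect was -0.24 (SE 0.05, adjusted p = 2.3e-05) at d2.5 and -0.51 (SE 0.04, adjusted p = 1.9e-08) at d5, a difference of -0.29 (SE 0.06, adjusted p = 1.0e-04). The knockdown effect was -0.10 (SE 0.05, adjusted p = 0.15) at d2.5 and -0.06 (SE 0.04, adjusted p = 0.27) at d5, and neither was called.

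Tgfbr3 is a minus-strand gene of chromosome 5 (107106570 to 107289629) and shares exon bases on that strand with Gm43422, so part of its reads could be ambiguous. Its libraries were at 60.1, 45.6 and 58.1 CPM with Ctrl+vehicle, 99.4, 96.3 and 99.9 CPM with Ctrl+FGF2 and 91.5, 92.6 and 93.5 CPM with Y/T dKD+FGF2 at d2.5, then at 98, 112 and 103, 147, 147 and 148 and 146, 154 and 155.5 CPM at d5. Here the Ctrl+vehicle libraries were the lowest on each day, without overlap. The FGF2 effect was 0.85 (SE 0.06, adjusted p = 7.0e-14) at d2.5 and 0.51 (SE 0.05, adjusted p = 7.3e-08) at d5, a difference of -0.36 (SE 0.09, adjusted p = 6.6e-04). The knockdown effect was -0.10 (SE 0.06, adjusted p = 0.204) and 0.04 (SE 0.04, adjusted p = 0.561), not called on either day.

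Tgfbr1, the type I receptor kinase, is a plus-strand gene of chromosome 4 (47353222 to 47414931). Its libraries were at 60.9, 65.1 and 63.7 CPM with Ctrl+vehicle, 48.6, 49.1 and 45.7 CPM with Ctrl+FGF2 and 58.9, 50.5 and 59.5 CPM with Y/T dKD+FGF2 at d2.5, then at 75.1, 78.6 and 74.2, 76.6, 74.5 and 70.8 and 91.9, 98.5 and 96.1 CPM at d5. At d2.5 the 3 groups did not overlap, and at d5 the knockdown libraries were above the other 2 groups, which overlapped. FGF2 changed it by -0.42 (SE 0.06, adjusted p = 7.9e-08) at d2.5 and by -0.03 (SE 0.05, adjusted p = 0.668) at d5, a difference of 0.37 (SE 0.08, adjusted p = 1.6e-04). The knockdown raised it by 0.23 (SE 0.06, adjusted p = 0.00381) at d2.5 and 0.36 (SE 0.05, adjusted p = 8.9e-06) at d5. Against Ctrl+vehicle, Y/T dKD+FGF2 was -0.19 (SE 0.05, adjusted p = 0.00303) at d2.5, a call that was lost without replicate 2 of Y/T dKD+FGF2, and 0.34 (SE 0.05, adjusted p = 1.4e-05) at d5.

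Of the latent binders, Ltbp2, a matrix protein of elastic fibres that, unlike Ltbp1 and Ltbp3, is not known to bind latent TGF-beta, had an FGF2 effect that turned from lower at d2.5 to higher at d5. Ltbp2 is a minus-strand gene of chromosome 12 (84783212 to 84876532), and the opposite-strand gene D030025P21Rik overlaps its exons. Its libraries were at 44.2, 46.9 and 43.1 CPM with Ctrl+vehicle, 34, 31.4 and 30.7 CPM with Ctrl+FGF2 and 26.8, 24.6 and 26.8 CPM with Y/T dKD+FGF2 at d2.5. At d5 they were at 19.9, 18.9 and 18.6, 72.2, 61.9 and 68.4 and 30.9, 35.5 and 31.3 CPM. No 2 groups overlapped on either day, and the order of Ctrl+vehicle and Ctrl+FGF2 was opposite on the 2 days, while the knockdown libraries were below Ctrl+FGF2 each time. The FGF2 effect was -0.50 (SE 0.06, adjusted p = 1.1e-08) at d2.5 and 1.83 (SE 0.07, adjusted p = 3.7e-12) at d5, a 3.56-fold level, and the effects differed by 2.30 (SE 0.10, adjusted p = 2.6e-18). The knockdown effect was -0.31 (SE 0.07, adjusted p = 9.3e-04) at d2.5 and -1.05 (SE 0.07, adjusted p = 2.4e-09) at d5, a 0.482-fold level, and these differed by -0.75 (SE 0.10, adjusted p = 1.5e-06). Against Ctrl+vehicle, Y/T dKD+FGF2 was lower at d2.5, -0.80 (SE 0.06, adjusted p = 1.1e-12), and higher at d5, 0.78 (SE 0.08, adjusted p = 6.5e-07). Each of these effects of Ltbp2 kept its direction and its call under every alternative tried.

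Ltbp1, the main carrier of latent TGF-beta in many tissues, is a plus-strand gene of chromosome 17 (75005568 to 75392512). Its libraries were at 569, 554 and 554 CPM with Ctrl+vehicle, 1012, 993 and 1032 CPM with Ctrl+FGF2 and 1037, 1072 and 1038 CPM with Y/T dKD+FGF2 at d2.5, then at 989, 1045 and 1029, 1060, 1070 and 1061 and 965, 1025 and 980 CPM at d5. At d2.5 the Ctrl+vehicle libraries stood apart below the rest. At d5 all 9 libraries lay between 965 and 1070 CPM, with the Ctrl+FGF2 libraries highest. The FGF2 effect was 0.84 (SE 0.03, adjusted p = 1.4e-21) at d2.5 and 0.07 (SE 0.03, adjusted p = 0.0932) at d5, a difference of -0.80 (SE 0.04, adjusted p = 1.9e-15). The knockdown effect of -0.11 (SE 0.03, adjusted p = 0.0196) at d5 was not called without replicate 3 of Ctrl+FGF2 or without replicate 1 or 3 of Y/T dKD+FGF2 (-0.14 to -0.09 across the fits without 1 library), and that at d2.5 was 0.04 (SE 0.03, adjusted p = 0.299).

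Ltbp3 is a plus-strand gene of chromosome 19 (5740904 to 5758532). Its libraries were at 138, 132 and 136 CPM with Ctrl+vehicle, 215, 205 and 213 CPM with Ctrl+FGF2 and 211, 217 and 208 CPM with Y/T dKD+FGF2 at d2.5, then at 221, 244 and 231, 373, 361.5 and 371 and 315, 341 and 335 CPM at d5. Ctrl+vehicle was lowest on both days without overlap, and at d5 the knockdown libraries lay between the other 2 groups. FGF2 raised Ltbp3 by 0.63 (SE 0.04, adjusted p = 3.5e-16) at d2.5 and by 0.68 (SE 0.04, adjusted p = 5.5e-10) at d5. The knockdown effect was -0.00 (SE 0.03, adjusted p = 0.963) at d2.5 and -0.16 (SE 0.04, adjusted p = 0.00441) at d5.

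The ratio of the summed Ltbp1, Ltbp2 and Ltbp3 to the summed ligands, both in CPM per kb, moved with FGF2, a quantity that was chosen after the values were seen and is given without a test. It was 1.31 ± 0.07 (SD, n = 3) for Ctrl+vehicle, 3.7 ± 0.0662 for Ctrl+FGF2 and 3.44 ± 0.114 for the Y/T dKD+FGF2 libraries at d2.5. At d5 it was 0.864 ± 0.0305, 1.25 ± 0.104 and 0.991 ± 0.0101. On both days the Ctrl+vehicle libraries had the lowest ratios and the Ctrl+FGF2 libraries the highest, without overlap. Ltbp1 made up between 66.5% and 78.8% of this sum of Ltbp genes in every library. The sum holds Ltbp2 and leaves out Ltbp4, a further member of the family. With Ltbp4 in the place of Ltbp2, the ratio was 1.33 ± 0.0801, 3.75 ± 0.065 and 3.49 ± 0.117 at d2.5 and 0.936 ± 0.0308, 1.33 ± 0.112 and 1.08 ± 0.0149 at d5, in the same order of groups and again without overlap, and Ltbp1 made up 62.4% to 77.8% of the sum.

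Inhba, whose product forms activin A as a homodimer, is a plus-strand gene of chromosome 13 (16011851 to 16031621). Its libraries were at 77.6, 92.7 and 89.6 CPM with Ctrl+vehicle, 72.5, 63 and 62.6 CPM with Ctrl+FGF2 and 99.1, 89.9 and 98.6 CPM with Y/T dKD+FGF2 at d2.5, then at 71.1, 57.9 and 65.3, 54, 41.2 and 44.7 and 58.4, 56.1 and 60.4 CPM at d5. The Ctrl+FGF2 libraries were the lowest on both days without overlap, and the ranges of the other 2 groups overlapped on both days. The FGF2 effect on Inhba was -0.40 (SE 0.06, adjusted p = 4.6e-07) at d2.5 and -0.46 (SE 0.09, adjusted p = 2.3e-04) at d5. The knockdown raised it by 0.53 (SE 0.06, adjusted p = 9.6e-08) at d2.5 and 0.32 (SE 0.09, adjusted p = 0.00831) at d5. Against Ctrl+vehicle, Y/T dKD+FGF2 was at 0.13 (SE 0.06, adjusted p = 0.0516) at d2.5, where the call changed under 7 alternatives, among them the fits without replicate 2 of Ctrl+vehicle, replicate 1 of Ctrl+FGF2 or replicate 2 of Y/T dKD+FGF2 (0.05 to 0.18 over all alternatives), and at -0.14 (SE 0.08, adjusted p = 0.185) at d5.

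Whether effects differed by day was tested for all genes in a fit of the 18 libraries. Higher and lower refer here to the signed log2 effect at d5 compared with that at d2.5, not to its strength. For FGF2, it was higher at d5 for 4 of the 10 genes, from -0.66 to -0.09 for Tgfb1, -0.87 to -0.12 for Tgfb3, -0.42 to -0.03 for Tgfbr1 and -0.50 to 1.83 for Ltbp2. It was lower at d5 for 3, from -0.24 to -0.51 for Tgfbr2, 0.85 to 0.51 for Tgfbr3 and 0.84 to 0.07 for Ltbp1. Of 14198 tested genes, 31.8% were called higher and 29.1% lower. For the knockdown, edgeR called 0 of the 10 higher at d5 (1, Tgfb1, at an unadjusted p under 0.05, and 0 by DESeq2) and 3 lower, namely Ltbp1, Ltbp2 and Ltbp3, where 11.6% of genes were called higher and 9.35% lower. With Y/T dKD+FGF2 set against Ctrl+vehicle, 4 were higher and 5 lower, where 30.3% and 29.0% of genes were called. The knockdown difference of Ltbp3 was not called in 6 of the fits that left out 1 library, those without replicate 2 of Ctrl+FGF2 or replicate 1 or 2 of Y/T dKD+FGF2 at d2.5, or replicate 1 or 3 of Ctrl+FGF2 or replicate 1 of Y/T dKD+FGF2 at d5 (-0.19 to -0.13).

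Across the 18 libraries, Tgfb2 and Tgfbr2 had a Pearson r of 0.98 in log2 CPM, Tgfbr3 and Ltbp3 of 0.98 and Tgfb2 and Tgfb3 of 0.97. Ltbp2 had its r with the other 9 genes between -0.39 and 0.23. The widest range of group means was that of Tgfb2 (3.39 on the log2 scale), followed by Tgfb3 (2.26) and Tgfbr2. Among all genes whose mean log2 CPM reached 1, those most alike were Hexa (r = 0.996), Cpe (0.995) and Fam20a (0.995) for Tgfb2, Adam12 (0.997), Fbln7 (0.996) and Eya1 (0.995) for Tgfb3, and Klhl5 (0.994), Rflnb (0.993) and Arxes2 (0.992) for Tgfbr2. These values are descriptions over libraries that share day, group and depth, and have no p.

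Most tested genes of a further list, whose products release, hold or bind TGF-beta, were lower with FGF2 at d2.5. This list leaves out Ltbp1 and Ltbp3, which rose there (0.84 and 0.63), and Ltbp2, which fell (-0.50). Of the 19 listed genes, 15 were tested at d2.5, of which 14 were lower and 1 higher with FGF2. Their median log2 fold change was -0.69 (all genes 0.00), where 34.1% of all tested genes were lower and 33.5% higher. Fmod, a proteoglycan that binds TGF-beta, had 151 ± 1.85 CPM (SD, n = 3) without FGF2 and 0.328 ± 0.15 CPM in Ctrl+FGF2 at d2.5 and changed by -8.83 (SE 0.11, adjusted p = 1.4e-33), and decorin (Dcn), another such proteoglycan, by -4.69 (SE 0.15, adjusted p = 3.1e-22). The 1 gene called higher was Itgb5, an integrin subunit, at 0.11 (SE 0.04, adjusted p = 0.0176), which was not called without replicate 1 of Ctrl+vehicle. At d5, 5 of 16 tested genes were higher and 9 lower with FGF2 (all genes 23.5% and 23.7%). Furin, the protease that cuts the propeptide, changed with FGF2 by -0.44 (SE 0.04) at d2.5 and 0.73 (SE 0.05) at d5, called on both days. At d5 Fmod was at 651 ± 23.3 CPM with Ctrl+vehicle and 505 ± 14.7 CPM with Ctrl+FGF2, an effect of -0.35 (SE 0.04), and that on Dcn was -2.18 (SE 0.07).

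Thbs1, which encodes the TGF-beta activator thrombospondin 1, was at 2802 ± 202 CPM with Ctrl+vehicle, 4373 ± 228 CPM with Ctrl+FGF2 and 1976 ± 67.6 CPM with Y/T dKD+FGF2 at d5. It changed with FGF2 by 0.65 (SE 0.05, adjusted p = 7.5e-09) and with the knockdown by -1.15 (SE 0.05, adjusted p = 1.5e-11), a 0.45-fold level. At d2.5 it was at 692 ± 23.4 CPM with Ctrl+vehicle, 140.3 ± 4.36 CPM with Ctrl+FGF2 and 113.5 ± 3.56 CPM with Y/T dKD+FGF2. The FGF2 effect at d2.5 was thus of opposite sign, -2.31 (SE 0.04, adjusted p = 9.2e-31), and that of d5 differed from it by 2.94 (SE 0.06, adjusted p = 3.2e-25). The knockdown effect at d2.5 was -0.32 (SE 0.04, adjusted p = 5.4e-07), and that of d5 differed from it by -0.84 (SE 0.07, adjusted p = 2.2e-10). With the knockdown, 4 of 15 genes of this list were higher and 3 lower at d2.5 (all genes 10.8% and 13.6%), and 7 of 16 higher and 4 lower at d5 (all genes 15.6% and 16.1%), with medians of 0.16 and 0.04. Without replicate 2 of Y/T dKD+FGF2 at d5, 4 were higher. Itgb3 was called higher on both days, at 1.18 (SE 0.19) and 0.77 (SE 0.07). Lrrc32 (GARP), a surface anchor of latent TGF-beta, was higher at d5, at 1.95 (SE 0.23, adjusted p = 4.6e-06), from a low level of 1.48 ± 0.622 CPM in Ctrl+FGF2.

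Among the other receptors and co-receptors of the family, Bambi, a pseudoreceptor, fell with FGF2 at d2.5, -1.99 (SE 0.10, adjusted p = 4.1e-17), and Acvr1, a type I receptor for BMPs, fell on both days, -0.68 (SE 0.05) at d2.5 and -0.34 (SE 0.05) at d5. Of 9 tested genes at d2.5, 2 were higher and 3 lower with FGF2 (all genes 33.5% and 34.1%), and of 8 at d5, 1 was higher and 2 lower (all genes 23.5% and 23.7%), which are counts near or below the shares of all genes. With the knockdown 1 of 9 was called at d2.5, Cd109, at 0.22 (SE 0.03) (all genes 10.8% higher and 13.6% lower), and 2 of 8 were higher and 2 lower at d5 (all genes 15.6% and 16.1%). Without replicate 1 of Ctrl+FGF2 at d2.5, 2 of 9 were higher. At d5, 1 was higher without replicate 3 of Ctrl+FGF2 or replicate 1 of Y/T dKD+FGF2, and 1 was lower in each of the 9 fits that left out 1 library. Of 13 activins, related ligands and antagonists, 6 were tested on each day. With FGF2, 4 of them were lower at d2.5 and 3 at d5 (all genes 34.1% and 23.7%), and the other tested genes of this list were not called. The activin antagonist follistatin (Fst) changed by -1.66 (SE 0.11, adjusted p = 1.1e-14) at d2.5 and -0.50 (SE 0.11, adjusted p = 0.00141) at d5, and Fstl1 by -1.37 (SE 0.03) and -0.36 (SE 0.03). With the knockdown, 2 of the 6 were higher at d2.5 and 3 at d5 (all genes 10.8% and 15.6%), including Gdf11 at 0.42 (SE 0.07) at d5. The count at d2.5 was 1 in 4 of the fits that left out 1 library, those without replicate 1 or 3 of Ctrl+FGF2 or of Y/T dKD+FGF2, where Gdf11 was lost.

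Of 24 tested Smads and intracellular regulators, 12 were higher and 9 lower with FGF2 at d2.5 (all genes 33.5% and 34.1%), and 6 higher and 10 lower at d5 (all genes 23.5% and 23.7%), with medians of 0.11 and -0.04. The 9 lower at d2.5 and the 6 higher at d5 were near the shares of all genes. Smad3, which carries the signal of the TGF-beta receptors, rose at d2.5 by 0.70 (SE 0.06, adjusted p = 2.0e-12). Smad6, an inhibitory Smad of BMP signalling above all, changed by -2.63 (SE 0.13, adjusted p = 5.8e-18) at d2.5 and 0.59 (SE 0.09, adjusted p = 3.2e-05) at d5. Pmepa1, which restrains the receptor Smads and is itself induced by TGF-beta, changed with FGF2 by -1.19 (SE 0.09, adjusted p = 3.5e-13) at d2.5 and -0.82 (SE 0.06, adjusted p = 9.6e-09) at d5 and with the knockdown by 0.78 (SE 0.10, adjusted p = 4.9e-07) and 0.70 (SE 0.06, adjusted p = 1.2e-07). Its level at d5 was 146 ± 13 CPM with Ctrl+vehicle, 82.2 ± 2.74 CPM with Ctrl+FGF2 and 134 ± 10.5 CPM with Y/T dKD+FGF2. Skil, a co-repressor of Smads, rose with the knockdown at d2.5 and d5, by 0.43 (SE 0.07) and 0.40 (SE 0.06). With the knockdown 3 of the 24 were higher and 4 lower at d2.5 (all genes 10.8% and 13.6%), and 6 higher and 3 lower at d5 (all genes 15.6% and 16.1%). The largest falls named at d2.5 were Tab1 at -0.31 (SE 0.07) and Hgs at -0.23 (SE 0.05).

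Of 23 genes known to respond to TGF-beta, 22 were tested at d2.5 and 21 at d5. With FGF2, 5 were higher and 15 lower at d2.5 (median -0.81), and 7 higher and 11 lower at d5 (median -0.27). Of all genes, 33.5% were higher and 34.1% lower at d2.5, and 23.5% and 23.7% at d5. Hmga2, a chromatin protein, rose at d2.5 by 2.90 (SE 0.04, adjusted p = 4.7e-31) and Acta2, smooth muscle actin, fell, -3.16 (SE 0.08, adjusted p = 1.4e-24). The FGF2 effects at d5 differed from these by -2.66 for Hmga2 (SE 0.09, adjusted p = 1.7e-20) and by 3.63 for Acta2 (SE 0.11, adjusted p = 6.2e-22). Col1a1, the main collagen of bone, changed by -2.53 (SE 0.03, adjusted p = 1.4e-33) at d2.5 and -0.93 (SE 0.04, adjusted p = 3.1e-11) at d5. With the knockdown, 4 were higher and 8 lower at d2.5 (median -0.10), and 12 higher and 2 lower at d5 (median 0.39, all genes 0.00), where 10.8% and 13.6% of all genes were called at d2.5 and 15.6% and 16.1% at d5. The largest falls named at d2.5 were Tagln at -0.72 (SE 0.24), a call that was lost with DESeq2, and Acta2 at -0.68 (SE 0.13). Tgfbi, a matrix protein named for its induction by TGF-beta, was among the 12 at 1.29 (SE 0.04, adjusted p = 9.7e-14), and Hmga2 at 1.04 (SE 0.07). The 2 called lower at d5 were Acta2 at -0.41 (SE 0.05) and Ldlrad4 at -0.26 (SE 0.09). Their number was 4 without replicate 1 of Ctrl+FGF2, and 1 without replicate 2 or 3 of Ctrl+FGF2 or replicate 1 or 3 of Y/T dKD+FGF2. Smad7, Skil, Pmepa1 and Ldlrad4 are on this list and on that of the Smads.

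**Figure D4:**
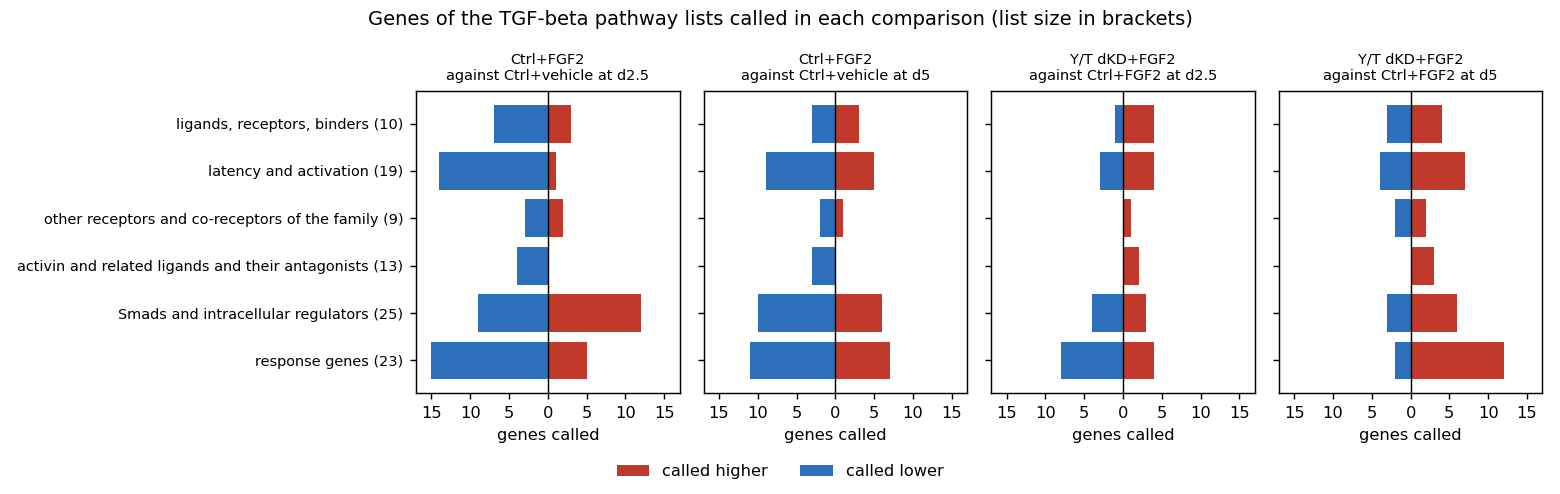
Number of genes called higher (right of 0) and lower (left of 0) at an adjusted p of 0.05 in each list (x axis, genes), for the FGF2 and the knockdown comparison at d2.5 and d5. The FGF2 comparison at d2.5 called 14 of 15 tested latency genes and 15 of 22 tested response genes lower (all genes 34.1%). The knockdown at d5 called 12 of 21 tested response genes higher (all genes 15.6%).

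The summed level of osteoblast markers also differed between the groups. Of 6 such markers (Runx2, Sp7, Alpl, Ibsp, Bglap and Col1a1), 5 were above 1 CPM in Ctrl+vehicle at d2.5, 4 in both FGF2-treated groups at d2.5, and at d5 6 in Ctrl+vehicle, 5 after control siRNA with FGF2 and 6 after the knockdown, and none was at 0 in a whole group. Their summed level was between 13247 and 13407 CPM for Ctrl+vehicle, 2299 and 2426 for Ctrl+FGF2 and 2163 and 2299 for the Y/T dKD+FGF2 libraries at d2.5, and between 31098 and 33113, 15858 and 17613 and 21893 and 23256 at d5. Of 5 smooth muscle markers, Acta2 and Tagln were above 1 CPM in all groups, and the list summed to 168 to 231 CPM for Ctrl+vehicle, 22.7 to 23.7 for Ctrl+FGF2 and 13.7 to 15.3 for the Y/T dKD+FGF2 libraries at d2.5. At d5 the sums were 2032 to 2146, 2674 to 3070 and 2111 to 2272 CPM. The osteoblast sum is not split by marker here, so it follows the most abundant transcripts and does not speak for each of the 6 markers. Col1a1 on its own changed with FGF2 by -2.53 (0.173-fold) at d2.5 and -0.93 (0.526-fold) at d5. At d2.5 the knockdown libraries were not above Ctrl+FGF2 in the osteoblast sum. Col1a1, Acta2 and Tagln are also on the list of response genes. The part of these cell states in the values of the 10 genes was not tested, and in bulk RNA fewer cells of a type and less RNA per cell cannot be told apart.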

How the data were processed

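Poly(A) RNA of O9-1 cells (SMARTER mRNA-Seq kit, RNeasy extraction) was measured in 18 libraries, 3 per group. The authors deposited raw counts per gene and library, without normalization. The submitters' processing notes name FastQC, STAR, Picard, featureCounts and mm10, with no versions or roles. The table layout is that of STAR's gene counts, and the reverse-strand counts (96.0% to 96.6% of stranded counts) were used. Entries that name no gene (27.0% to 34.4% of a library) were left out, so reads that map to several places were not counted. Of 55335 identifiers 55154 matched GENCODE M21, ignoring version suffixes.

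These counts went into the quasi-likelihood test of edgeR 4.0.16 (R 4.3.3), with TMM factors and filterByExpr, with the 9 libraries of a day in 1 fit and 18 libraries for differences between days. A gene is called where its p, adjusted by Benjamini-Hochberg over all tested genes, is under 0.05. SE was taken as |log2 fold change| over the root of the test's F. The step was also run on simulated counts in which far fewer genes changed than were called here. That run does not check the scaling or the false calls at the shares of called genes seen here. Alternatives were DESeq2 1.42.0, factors by RLE or upper quartile, leaving the filter out, a minimum of 10 counts per library, a replicate block, unstranded counts, an adjusted p of 0.01, only the 2 groups compared, all 18 libraries in 1 fit, and leaving out each library. Besides the 10 genes and the siRNA targets, the text names from each pathway list up to 2 called genes with the largest rise and fall per comparison (mean log2 CPM of at least 1, no overlap of replicates) and the genes most alike. The genes, lists and rules were chosen with earlier results of these data known. RNA-seq libraries alone were used.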

Additional observations from a re-analysis of the deposited data

Results flagged for a closer look

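For each of the 10 genes, the difference of an effect between d5 and d2.5 was tested with edgeR as an interaction in 1 fit of all 18 libraries, and the values here are log2 differences (effect at d5 minus effect at d2.5) that passed an adjusted p of 0.05. Positive values mean a higher signed effect at d5, not a stronger one. For Ctrl+FGF2 against Ctrl+vehicle they were 0.54 for Tgfb1, 0.73 for Tgfb3, 0.37 for Tgfbr1, -0.29 for Tgfbr2, -0.36 for Tgfbr3, -0.80 for Ltbp1 and 2.30 for Ltbp2. For Y/T dKD+FGF2 against Ctrl+FGF2 they were -0.15 for Ltbp1, -0.75 for Ltbp2 and -0.16 for Ltbp3. With Y/T dKD+FGF2 set against Ctrl+vehicle they were 0.74 for Tgfb1, 0.62 for Tgfb3, 0.50 for Tgfbr1, -0.26 for Tgfbr2, -0.22 for Tgfbr3, -0.95 for Ltbp1, 1.55 for Ltbp2, -0.14 for Ltbp3 and -0.29 for Inhba. Of the last comparison, Tgfbr3 was not called without replicate 2 of Ctrl+vehicle or 3 of Y/T dKD+FGF2 at d2.5, or replicate 2 of Ctrl+vehicle or 1 of Y/T dKD+FGF2 at d5 (-0.31 to -0.10 across the fits without 1 library). Ltbp3 was not called without replicate 2 of Ctrl+vehicle on either day or replicate 1 of Y/T dKD+FGF2 at d5 (-0.18 to -0.10). Inhba was not called without replicate 1 of Ctrl+vehicle on either day, replicate 1 or 3 of Y/T dKD+FGF2 at d2.5 or replicate 2 of Y/T dKD+FGF2 at d5 (-0.37 to -0.23). None of the 3 was called with upper-quartile factors.

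The 3 comparisons share libraries in pairs, so these differences are not independent of each other. The FGF2 effect changed sign between days for Ltbp2 alone among the genes called on both days (-0.50 at d2.5 and 1.83 at d5). With Y/T dKD+FGF2 set against Ctrl+vehicle the sign of the called effects changed for Tgfb1 (-0.46 and 0.30), Tgfbr1 (-0.19 and 0.34) and Ltbp2 (-0.80 and 0.78). Days are batches in the labels, and a batch difference that acts on the groups unequally cannot be told apart from a day difference here.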

How the results depend on the processing

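For the 90 effects of the 10 genes, 1850 of 1920 values under alternatives kept the call and direction, 47 lost and 23 gained the call, and none reversed a call; 20 of the 90 changed call somewhere. At an adjusted p of 0.01, 2057 genes in place of 3345 were called for the knockdown at d2.5 and 1781 in place of 2973 for the day difference of that effect, where 1 of the 10 genes in place of 3 was called lower. With only the 2 groups compared, 2 of the 10 in place of 1 were called lower with the knockdown at d2.5. For the day difference of Y/T dKD+FGF2 against Ctrl+vehicle, 2 of the 10 in place of 5 were called lower with upper-quartile factors and also 2 at an adjusted p of 0.01, and 3 to 5 when leaving out 1 library (3 without Ctrl+vehicle replicate 2 or Y/T dKD+FGF2 replicate 3 at d2.5, or Ctrl+vehicle replicate 2 or Y/T dKD+FGF2 replicate 1 at d5). Leaving out 1 library gave 3 to 5 called lower with FGF2 at d5, and 0 to 1 higher for the day difference of the knockdown (Tgfb2 without Y/T dKD+FGF2 replicate 3 at d2.5, Tgfb1 without Ctrl+vehicle replicate 1 or 2 at d5). The cause of these changes was not tested, apart from the stricter threshold, which calls fewer genes by construction.

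Deviations of same-numbered libraries of different groups correlated at -0.082 to 0.042 at d2.5 and at -0.063 to 0.157 at d5. At d5 the same-numbered pairs of Ctrl+vehicle and Ctrl+FGF2 were at 0.145, 0.157 and 0.027. Their differently numbered pairs were between -0.154 and -0.001. The same-numbered pairs with Y/T dKD+FGF2 at d5 were all negative (-0.063 to -0.003). Whether same-numbered libraries belong together was not tested, and the main fits hold no replicate block. With the replicate number as a block, 3226 genes in place of 3345 were called for the knockdown at d2.5 and 4354 in place of 4220 at d5. For FGF2 at d5, 6352 genes in place of 6278 were called with the block, and 4 of the 10 in place of 3 were called lower (Tgfb3 was added). For the day difference of the knockdown, 1 of the 10 (Tgfb1) in place of 0 was called higher. Group levels of the 10 genes moved by at most 0.766% with RLE and 3.35% with upper-quartile factors. The counts on the pathway lists stayed within 1.5 times in 1828 of 1920 values. A knockdown effect as small as that of Tgfb2 at d2.5 (0.23, SE 0.09) lay at the threshold (adjusted p = 0.0499) at this depth of 248 to 342 counts per FGF2-treated library.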
